A study of Mus musculus with 42 samples.

Results

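The AP-1 transcription factor genes described here are the 10 mouse genes Fos, Fosb, Fosl1, Fosl2, Jun, Junb, Jund, Atf3, Maff and Mafk. They were chosen by name and not by a cut on their values, but with earlier results of these data known. In the RNA-seq data each gene is the row with its symbol. In 3′READS, which sequences the 3′ ends of poly(A)+ transcripts and counts reads at each polyadenylation site (PAS), each gene is the sum of the PASs inside its mm9 span or up to 4000 nt past its end on the same strand, short of the next gene. This gave 70 of the 83916 PASs, and the 10 genes are among 13469 genes with a PAS in at least 1 library.

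The series held 38 3′READS and 4 RNA-seq libraries of mouse cell lines. NIH3T3, an immortalized embryonic fibroblast line, was non-treated (NT), given sodium arsenite at 250 µM over 1 h (AS), or given it and then kept in normal medium for a recovery of 4, 8, 12 or 24 h (RC4 to RC24). Total RNA was sequenced in all of these conditions. Newly made RNA, labelled with 50 µM 4-thiouridine (4sU) in the last 1 h before harvest, was sequenced in NT, AS and RC4. So was the flow-through (Ft) that was not captured with it. The paper describes these fractions as enriched for newly made and pre-existing RNA, so Ft can hold some RNA made in that 1 h. Cytoplasmic RNA bound by TIA1 (RNA immunoprecipitation, RIP) was sequenced with its cytoplasmic input in NT and AS. C2C12, a myoblast line, was used as proliferating cells (MB) and as differentiated cells (MT), both for cytoplasmic RNA in NT, AS and RC4 and for total RNA without treatment. The labels give the strain of both lines as C57BL/6 and name no genetic change, and each line stands for a single cell source without animals behind it.

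AP-1 is a dimer of basic leucine zipper proteins. Jun proteins pair with each other or, more stably, with Fos proteins, and the pairs bind the TGACTCA element of genes for growth, matrix turnover and stress defence. Fos, Fosb, Jun, Junb and Atf3 are classic immediate-early genes, which the MAP kinases switch on through factors already present in the cell and whose transcripts are short-lived, in part through AU-rich elements in their 3′UTRs. Atf3 pairs with Jun proteins and is a common target of the integrated stress response. The small Maf proteins, Maff and Mafk, have no activation domain and act through partners, among them the oxidative stress factor Nrf.

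The deepest 3′READS library held 6974664 reads and the shallowest 1048335 (median 2874186), and the RNA-seq libraries held 17137579 to 25194062 reads. A PAS or gene with under 5 reads in a library is not listed there and is called unlisted below, so it had at most 4 reads. Levels are RPM, reads scaled to a common library size, with median-ratio factors within a set (scaled RPM). All 7 fibroblast markers were listed in NIH3T3 and none of the 3 myoblast markers was. The MT libraries are labelled myoblast as their source, yet the 6 myotube markers summed to 7830 to 12300 RPM there and to 82.9 to 287 RPM in MB. Of the 7 fibroblast markers, 6 were also listed in MB and MT. They summed to 6590 to 15300 RPM in MB, 7630 to 17500 in MT and 2650 to 12600 in NIH3T3. The epithelial markers Epcam, Krt8 and Krt18 and the leukocyte gene Ptprc were listed in no library. The other immune marker, Cd68, reached 33.6 RPM in NIH3T3, 9.23 in MB and 6.58 in MT. The endothelial markers Pecam1 and Cdh5 summed to at most 9.95 RPM in NIH3T3, 3.52 in MB and 2.47 in MT. No replicate pair looked like 1 library deposited more than once (chi-square per degree of freedom 2.41 to 124 over 17 pairs). The labels do not say that replicates came from separate cultures, so p-values measure the spread between these libraries, which may be technical, and intervals cover counting error only, since PCR copies are not told apart. In such bulk samples, fewer cells with a transcript and less of it per cell cannot be told apart.

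The 3′ ends of the genes are shown first, because every 3′READS value below is a count of reads at these sites. Fos (chr12:86814840-86818223, plus strand) and Atf3 (chr1:192994175-193007219, minus strand) each ended almost always at 1 PAS, with 99.3% and 99.8% of their reads. Fosl2 (chr5:32438845-32460204, plus strand) used 17 PASs, the most abundant being a distal one with 50.1% and a proximal one with 22.3% of reads, and Jun (chr4:94715725-94718913, minus strand) used 19, the main one with 50.8% of reads and another 100 nt downstream with 22.5%. Jun also had 23.9% of its reads at chr4:94715732, downstream of both. Fosl2 had 16.5% at chr5:32460213, downstream of the distal PAS named here. The windows of these further sites are not shown. Fos, Atf3, Fosl2 and Jun are shown because the results turn on them. Each line gives 30 bases that end at the PAS or a few bases before it, 5′ to 3′ on the transcribed strand, with the polyadenylation signal AATAAA or ATTAAA in capitals; the proximal Fosl2 window holds neither. The coordinates are mm9, and the sequence is that of NCBIM37.
Fos, chr12:86818193-86818222: attgtcAATAAAagcatttaagttgaatgc
Atf3, chr1:192994179-192994208: caacatAATAAAtatcggaacaaaacctgg
Fosl2 proximal, chr5:32456059-32456088: tccagatagtaaagcgcttttatttctgga
Fosl2 distal, chr5:32460088-32460117: agaacatATTAAAaacttattttccctcgg
Jun upstream, chr4:94716394-94716423: actgtcAATAAAcagcttcctgcctttgta
Jun downstream, chr4:94716289-94716318: ccatttgtAATAAAgtatataattttttta
Within 45 nt of the main PAS, 7 of the 10 genes had AATAAA, 1 had only ATTAAA and 2, Junb (chr8:87500811-87502617, minus strand) and Jund (chr8:73221638-73224515, plus strand), had neither. Of the main PASs of 12286 genes, 67.2% had AATAAA and 16.8% had neither. The other genes lie at chr7:19888070-19895394 (Fosb, minus), chr19:5447703-5455945 (Fosl1, plus), chr15:79177971-79189502 (Maff, plus) and chr5:140267467-140278607 (Mafk, plus).

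AU-rich stretches were common in the 300 nt before the main PAS. The pentamer ATTTA, the core of AU-rich elements, was found on the sense strand in 8 of the 10 genes and in 40.2% of 12286 genes. Jun and Fosb had none before their main PAS. The longer TTATTTATT, which contains ATTTA, was found in Fos and Maff and in 2.3% of genes. Fos and Maff each held 4 copies of ATTTA, and TTTT, a run of the kind TIA1 binds, had a median of 11.5 copies in the 10 genes and 3 in all genes. The windows below show these AU-rich stretches in mm9, with ATTTA copies in capitals.
Fos, chr12:86818048-86818077: tattgtgttttcaATTTATTTAttaagatg
Maff, chr15:79189207-79189236: cttccacactcttATTTAttgcacgaatct
Of the 9 genes with an entry in the RefSeq promoter table (GRCm38.p6, 250 bases before to 50 after the start), none held TGACTCA on either strand, against 5.95% of 27025 genes. Maff held TGACGTCA, the element of CREB and ATF proteins (2.03% of genes), and Fosb held TGACGCA (2.42%). Both are shown in GRCm38.p6 with the element in capitals, 29 and 60 bases before the start, because they are the only hits among the members; a match is a description, not a binding site.
Maff, chr15:79347480-79347509, plus: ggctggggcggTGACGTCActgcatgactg
Fosb, chr7:19310087-19310116, minus: ggagttgcgggTGACGCAagcgcgggggcg

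RNA-seq, which counted reads on coding sequences, asked how gene expression changed with AS and RC4, with 1 library for each and 2 NT libraries (0 h and 4 h). There is no test with 1 library per condition, so folds are over the mean of the 2 NT libraries, and 2-fold is the limit used. In AS, 9 of the 10 genes were at least 2-fold higher, against 2.45% of 10953 genes, and none was 2-fold lower. In RC4, 7 of 10 were, against 15.4% of 11064 genes; without median-ratio scaling, on library totals, 6 were. The median log2 fold of the 10 genes was 1.59 in AS and 2.60 in RC4, or 1.81 in RC4 on library totals.

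Fos, the founding partner of Jun, was at 9.09 and 10.3 RPM in NT, 75.0 in AS and 87.3 in RC4, which is 7.73-fold and 8.99-fold over NT. Fosb, a close paralog of Fos, was at 1.77 and 0.252 RPM in NT, 44.3 in AS and 42.5 in RC4. Its folds of 43.8 and 42.0 rest on few NT reads. Between AS and RC4 the log2 level moved by 0.22 for Fos and -0.06 for Fosb, but by -0.54 and -0.81 on library totals. Fosl1, a Fos family member that is itself an AP-1 target, was at 58.9 and 59.0 RPM in NT, 141 in AS and 254 in RC4. Fosl2, the other late Fos family member, moved least, with 143 and 90.4 RPM in NT, 153 in AS and 121 in RC4.

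Jun, the main partner in AP-1 pairs, was at 301 and 370.4 RPM in NT, 1434 in AS (4.27-fold) and 826 in RC4 (2.46-fold). Junb, which can oppose Jun, was at 84.5 and 73.6 RPM in NT, 273 in AS and 126 in RC4. Jund, the most constant Jun gene in many cells, was at 16.8 and 14.3 RPM in NT, 41.9 in AS and 26.3 in RC4. All 3 Jun genes were higher in AS than in RC4. Atf3 was at 8.36 and 5.34 RPM in NT, 249.8 in AS (36.5-fold) and 2008 in RC4 (293-fold). Maff was at 3.32 and 1.66 RPM in NT, 7.3 in AS and 37.0 in RC4 (14.9-fold), and Mafk at 8.5 and 6.85 RPM in NT, 20.5 in AS and 82.1 in RC4 (10.7-fold). Atf3 and the small Maf genes were thus several times higher in RC4 than in AS. On library totals Junb, Jund and Fosl2 in RC4 turned to below NT, with log2 folds of -0.13, -0.05 and -0.75.

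In the total RNA of NIH3T3 by 3′READS there were 3 NT and 3 AS libraries, numbered 1, 2 and 4. Jun was at 127, 55.6 and 187 scaled RPM in NT and at 233, 304 and 609.8 in AS. Atf3 was at 28.1, 4.33 and 5.14 in NT and at 96.0, 137 and 67.8 in AS. For these 2 genes every AS library was above every NT library, as was so for 1.18% of the 9168 genes tested. Jund was at 6.61, 17.3 and 11.02 in NT and at 15.8, 57.1 and 35.3 in AS, so the groups overlapped by 1 library each. The 9 genes that could be tested were higher in AS than in NT in each of the 3 same-numbered pairs, which 14.0% of genes were; Fosb had too few reads for the test.

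The test without replicate number (edgeR's quasi-likelihood test, Benjamini-Hochberg adjustment over all genes) called 0 of 9168 genes, 0.0%, and no member; 19 genes had an unadjusted p under 0.05, and DESeq2 also called 0. The log2 fold changes were 3.00 ± 0.82 (SE, n = 3 and 3) for Atf3, 1.63 ± 0.61 for Jun and 1.62 ± 0.64 for Jund, each with an edgeR adjusted p of 1. Libraries with the same number deviated together, so the fit with the replicate number as a block is given too. It called 25 genes higher (0.273%) and 1 lower. Among the 25 were Atf3 (3.28 ± 0.50, edgeR adjusted p = 0.0348), Jun (1.68 ± 0.26, adjusted p = 0.0348) and Jund (1.59 ± 0.25, adjusted p = 0.0356). Leaving out pair 1 or pair 2 ended all 3 calls: the blocked adjusted p became 0.0614 and 0.305 for Atf3, 0.0834 and 0.430 for Jun, and 0.188 and 0.999 for Jund. Without pair 4, the time-course pair, these 3 genes passed and Fosl1 (0.91 ± 0.22, adjusted p = 0.047) and Maff (1.13 ± 0.25, adjusted p = 0.0302) passed as well.

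The other members did not pass in the fit over all 3 pairs. Fos was at 54.5 and 8.45 scaled RPM in NT replicates 1 and 2 and unlisted in NT replicate 4, and at 72.0, 49.7 and 46.8 in AS. The NT libraries of Fos thus ran from under 5 reads to a level above 2 of the AS libraries, and its blocked log2 fold change of 1.85 ± 0.55 had an edgeR adjusted p of 0.395. Fosb was listed in 1 of the 6 libraries, at 5.54 in AS replicate 1. Fosl1 was at 74.7, 69.9 and 182 in NT and at 129.8, 141 and 286 in AS. Junb was at 7.84, 14.8 and 214 in NT and at 14.6, 24.4 and 572 in AS, so replicate 4 was more than 10-fold above replicates 1 and 2 in both conditions. Leaving out AS replicate 4 turned the sign of its unblocked change (log2 -2.01). Fosl2 was at 438, 387 and 184 in NT and at 473, 473 and 219.5 in AS, with replicate 4 low in both. Maff, at 80.9, 11.9 and 45.5 in NT and 139.7, 34.8 and 72.5 in AS, and Mafk, at 55.3, 23.7 and 23.5 in NT and 68.8, 46.0 and 30.5 in AS, also spread more between pairs than within them.

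**Figure D1:**
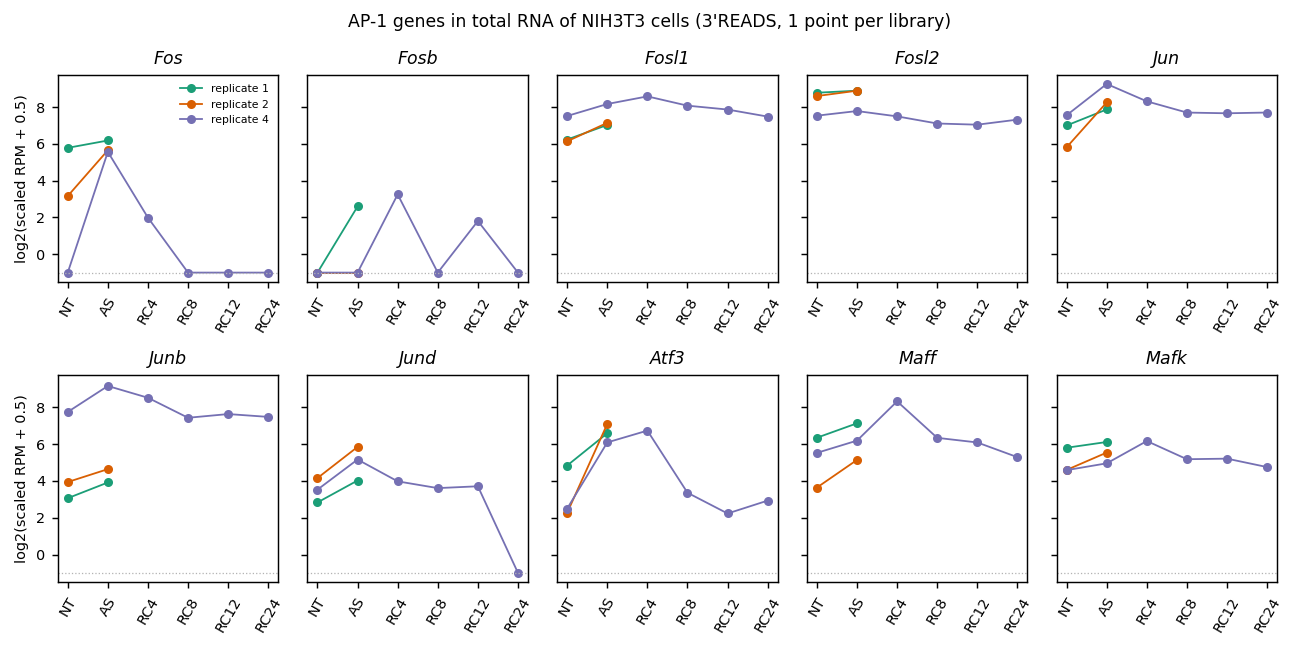
Scaled RPM of the 10 genes in each total RNA library of NIH3T3, on a log2(scaled RPM + 0.5) axis, with lines joining libraries of the same replicate number and the dotted line marking unlisted (under 5 reads). The AS point lies above the NT point in every pair for the 9 tested genes, and the pairs of Junb lie far apart.

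After stress the genes parted. In the time course (replicate 4, 1 library per time point, folds over NT replicate 4, no test), Atf3 went from 5.14 scaled RPM in NT and 67.8 in AS to 106 after 4 h (exact 95% Poisson interval 89.9 to 124). After 8, 12 and 24 h it read 9.75, 4.19 and 7.12. Maff peaked at 4 h too, at 320.1 RPM (292 to 351) against 45.5 in NT and 72.5 in AS, and was at 80.6, 67.6 and 38.7 at 8, 12 and 24 h. Mafk was highest at 4 h at 71.4 RPM (58.2 to 86.6) against 23.5 in NT. Fosl1 was at 382 RPM at 4 h (351 to 415), 2.10-fold over NT, and then at 269, 232 and 178. These 4 genes were the ones at least 2-fold higher at 4 h, of 8 with enough reads, against 12.1% of 7179 genes; on library totals 3 of 8 were.

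Fos and the Jun genes were below their AS level by 4 h. Fos went from 46.8 RPM in AS to 3.46 at 4 h, a count of 5 reads, and was unlisted from 8 h on. Jun went from 609.8 RPM in AS to 317 at 4 h and 207, 202 and 208 afterwards, close to the 187 of NT, and Junb from 572 to 366, 172, 198 and 178. Jund was at 35.3 in AS and at 15.2 at 4 h. Fosb was unlisted in NT and AS of this replicate, at 9.01 RPM at 4 h and 2.99 at 12 h, and unlisted at 8 and 24 h. Fosl2 ran at 179.5, 137, 131 and 159 over the 4 time points, against 184 in NT. Its counting intervals at 4 h (158 to 203) and 24 h (135 to 186) covered the NT value. Those at 8 h (119 to 157) and 12 h (114 to 150) lay below it. At 8, 12 and 24 h, 0 of 6, 0 of 7 and 0 of 6 members were 2-fold higher, against 5.56%, 3.12% and 1.24% of all genes.

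The 4sU fraction asked which of these changes were in newly made RNA. Labelling and capture depend on the number of uridines in a transcript. The paper adjusted its ratios of Ft to 4sU for this, and the values here are not adjusted. In NT cells (2 libraries of each fraction, 0 h and 4 h) 6 of the 9 tested genes were higher in 4sU than in Ft, against 26.7% of 9634 genes, and none was lower. Of all genes, 2576 were higher and 2208 lower, or 3093 and 1652 on library totals, which moved the median log2 difference from 0.06 to 0.26. Fosl2 was at 1062 and 792 scaled RPM in 4sU and at 232 and 238 in Ft (log2 difference 1.98 ± 0.19, SE, n = 2 and 2, edgeR adjusted p = 1.39e-05). Fos was at 66.5 and 66.3 in 4sU and 19.4 and 18.9 in Ft (1.79 ± 0.22, adjusted p = 5.99e-05). Neither gene's fractions overlapped, nor did those of Jun, Junb, Atf3 and Mafk, and the share of all genes without overlap was not counted.

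Mafk (1.40 ± 0.19), Atf3 (1.85 ± 0.46) and Jun (0.97 ± 0.19) also passed, with edgeR adjusted p of 0.000107, 0.00553 and 0.00103. Junb passed by little (0.59 ± 0.21, edgeR adjusted p = 0.0364), and its call was lost in DESeq2 (adjusted p = 0.192) and on leaving out any 1 library. Fosl1, Jund and Maff did not pass, with log2 differences of 0.26, -0.10 and -0.08; on library totals Fosl1 passed (0.45, edgeR adjusted p = 0.0477) and the other two turned sign.

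In AS, 1 library of each fraction, 7 of 10 genes were at least 2-fold higher in 4sU, against 4.22% of 9337 genes, and 7 in Ft, against 2.67% of 8801. Fos was at 2738 RPM in 4sU, 41.2-fold over its NT mean, and at 488 in Ft (25.5-fold). Fosb was at 72.8 in 4sU against 4.18 and 1.95 in NT, and at 18.6 in Ft, where NT was 2.33 and unlisted. Atf3 was at 477 in 4sU against 20.9 and 15.8 in NT (26.0-fold), and at 129.5 in Ft against 6.99 and 3.26 (25.3-fold). Jun was at 2597 in 4sU against 385 and 299.6 (7.59-fold) and at 889.9 in Ft against 164 and 184 (5.12-fold). These 4 genes therefore stood well outside their NT libraries in both fractions. How much of their RNA in Ft was made during the 1 h of AS was not tested.

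Jund was 9.52-fold, Junb 5.02-fold and Maff 4.31-fold over NT in 4sU of AS, and 3.91-fold, 4.31-fold and 2.04-fold in Ft. Mafk and Fosl1 were 1.92-fold and 1.85-fold over NT in 4sU. Fosl2 was at 668 RPM, below both NT libraries at 1062 and 792.

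In RC4, 6 of 10 genes were at least 2-fold higher in 4sU, against 14.0% of 9687 genes, and 8 in Ft, against 14.9% of 8941. Atf3 was at 439.5 in 4sU, 23.9-fold over NT and near its AS level, while in Ft it was at 744, 145-fold over NT and 5.74 times its AS level. Maff was at 337 in 4sU and at 794 in Ft, where it was 8.67-fold over NT. The level of Mafk was 365 in 4sU and 266 in Ft (4.25-fold over NT), and that of Fosl1 705 and 763. Fos in 4sU was at 202 (3.04-fold over NT) and in Ft at 102 (5.32-fold). Jun was at 504 in 4sU and 423 in Ft. Junb in 4sU was at 34.1, under both NT libraries at 53.9 and 49.7, and in Ft at 52.6, over both at 34.6 and 33.9. Jund was at 7.69 in 4sU, near NT at 6.27 and 7.31, and at 27.8 in Ft against 8.15 and 6.53.

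**Figure D2:**
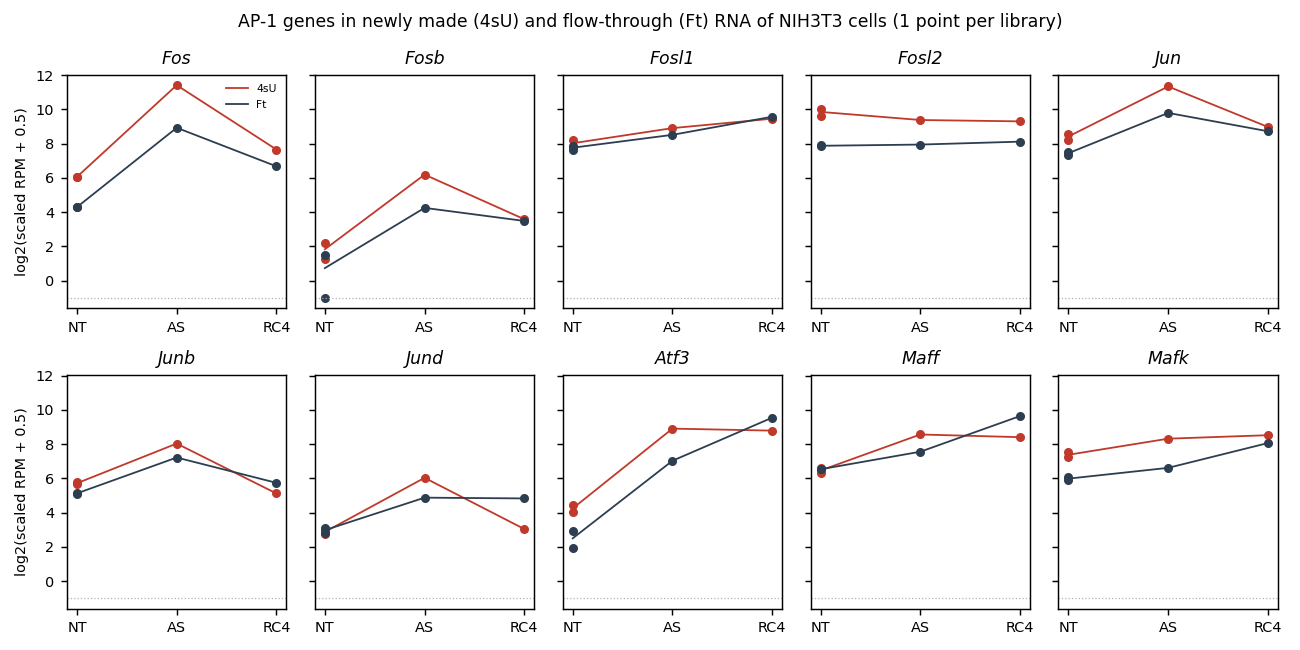
Scaled RPM of the 10 genes in newly made (4sU, red) and flow-through (Ft, dark) RNA of NIH3T3 in NT, AS and RC4, on a log2(scaled RPM + 0.5) axis, 1 point per library with lines through the means and the dotted line marking unlisted. Fos and Jun peak in AS in both fractions, whereas Atf3, Maff and Mafk are highest in RC4 in Ft.

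C2C12 cells asked whether the response held in other cells. In the cytoplasm of MB, Atf3 was at 14.7 and 9.83 scaled RPM in NT, 904 in AS (73.7-fold) and 674 in RC4 (54.9-fold). In MT it was at 7.62 and 7.62 in NT, 346 in AS (45.4-fold) and 2440.0 in RC4 (320.2-fold). Fos was at 5.35 and 4.59 in MB NT, 149.6 in AS and 59.4 in RC4. In MT, Fos was at 8.1 and 8.82 in NT, 378 in AS and 242 in RC4. Both genes were far above NT in each of the 4 stressed libraries.

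Jun was at 78.2 and 68.8 in MB NT, 469.5 in AS and 140.2 in RC4, and at 58.6 and 44.5 in MT NT, 426 in AS and 544 in RC4. The cytoplasm of MT in RC4 was the only one of 6 sets in which Jun was higher in RC4 than in AS. Fosb was unlisted in NT of both cell states and at 11.7 and 18.7 in AS and RC4 of MB, at least 3.52-fold and 5.65-fold over NT taken at the 5-read limit. It was at 10.8 and 27.8 in AS and RC4 of MT, at least 4.94-fold and 12.7-fold higher. Fosl1 was at 165 and 324 in MB NT, 381 in AS and 1011 in RC4, and at 18.1 and 37.3 in MT NT, 69.9 in AS and 228 in RC4. In both states Fosl1 was highest in RC4.

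Junb was at 30.1 and 47.2 in MB NT, 88.3 in AS and 30.7 in RC4, and at 40.5 and 77.4 in MT NT, 138 in AS and 44.1 in RC4, so its RC4 libraries lay within the NT range. Maff was at 82.9 and 126 in MB NT, 109.6 in AS and 329.9 in RC4, and at 65.3 and 108 in MT NT, 77.3 in AS and 209 in RC4. Maff in AS thus lay within its NT range in both states. Mafk, Jund and Fosl2 were at 1.01 to 2.21 times NT in the 4 libraries. At least 2-fold higher were 5 of 10 genes in AS of MB (5.93% of all genes) and 6 in RC4 (8.8%), and 7 in AS of MT (4.65%) and 6 in RC4 (7.36%), and none was 2-fold lower.

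From each set 1 AS and the RC4 library were set side by side, in RNA-seq, total RNA (replicate 4), 4sU, Ft and the cytoplasm of MB and MT. Fosl1 and Mafk were higher in RC4 than in AS in 6 of 6 sets, Maff in 5 and Atf3 in 4. Junb and Jund were higher in RC4 in 0 of 6 sets, and Jun, Fosl2 and Fos in 1; on library totals Fos and Fosl2 were so in 0. Fosb was higher in 3. In total RNA the order of Atf3 rests on the AS library, since AS replicate 2 was at 137 RPM and the RC4 library at 106. Of all genes, 46.9 to 52.8% were higher in RC4 than in AS per set. The 6 sets are not repeats of 1 experiment, since they differ in RNA fraction and cell type and 4sU and Ft come from the same RNA.

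**Figure D3:**
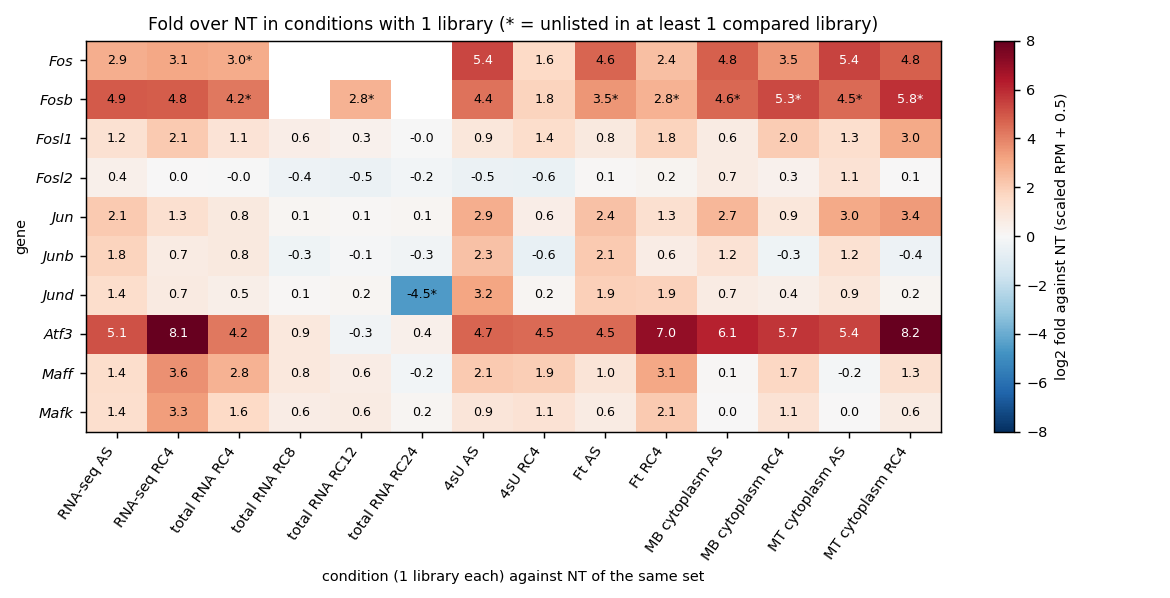
Log2 fold over NT of the 10 genes (rows) in each single AS or recovery library (columns) of the RNA-seq, total RNA, 4sU, Ft, MB and MT sets; an asterisk marks a gene unlisted in a compared library, whose fold depends on the pseudocount of 0.5 RPM. Fos, Fosb and Atf3 lead the AS column of 4sU (41.2-fold, 23.8-fold and 26.0-fold), and Atf3 leads the RC4 columns of RNA-seq and MT (293-fold and 320.2-fold).

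Total RNA of untreated MT and MB cells, 2 libraries each, asked how the genes differ between these states. In the paper, MT were made by changing dense cultures from fetal bovine serum to a lower level of horse serum. Serum, cell density and differentiation therefore cannot be told apart here. Fosl1 was at 161 and 152 scaled RPM in MB and at 5.28 and 4.0 in MT (log2 difference -5.08 ± 0.19, SE, n = 2 and 2, edgeR adjusted p = 1.26e-12). Atf3 went the other way, at 1.64 and 2.61 in MB and 115 and 117 in MT (5.71 ± 0.23, edgeR adjusted p = 3.16e-12). In the cytoplasmic NT libraries of the separate stress experiment Atf3 was at 14.7 and 9.83 in MB and 7.62 and 7.62 in MT, so the high MT level of the total RNA was not seen there. Fosl1 was lower in MT there as well, at 18.1 and 37.3 against 165 and 324. Those libraries were scaled apart from the total RNA, and no test was run across the sets.

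The remaining differences in total RNA were smaller. Fos (1.17 ± 0.28), Jund (0.88 ± 0.23), Fosl2 (0.64 ± 0.12), Junb (0.61 ± 0.14) and Mafk (0.54 ± 0.14) were higher in MT, and Maff (-0.82 ± 0.14) and Jun (-0.60 ± 0.13) lower, with edgeR adjusted p from 6.59e-05 for Maff to 0.00325 for Jund. Jund missed the threshold in DESeq2 (adjusted p = 0.0771), and Mafk did so in edgeR without MT replicate 2 (0.43, adjusted p = 0.0524). In all, 6 of 9 tested members were higher, against 32.5% of 10121 genes, and 3 were lower, against 29.4%. Fosb was unlisted in all 4 libraries.

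**Figure D4:**
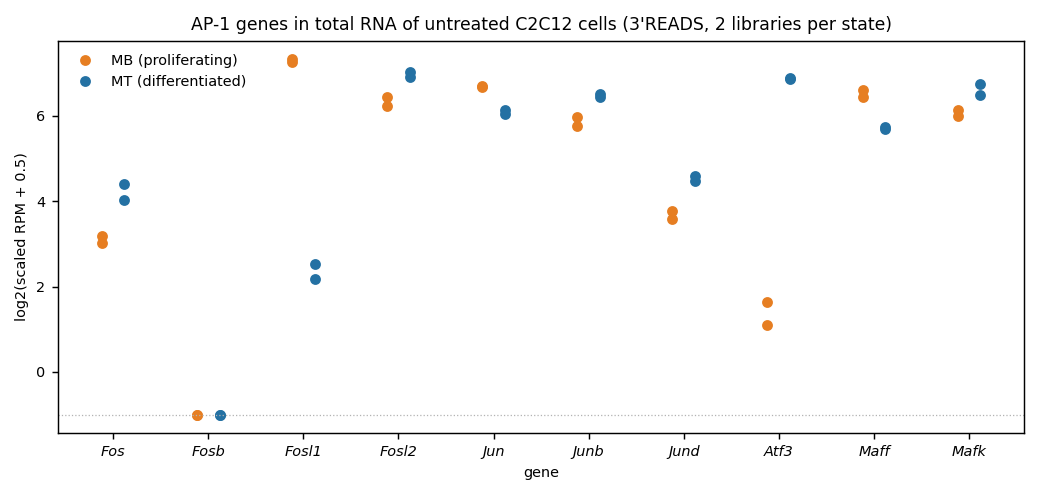
Scaled RPM of the 10 genes in total RNA of untreated proliferating (MB, orange) and differentiated (MT, blue) C2C12 cells, on a log2(scaled RPM + 0.5) axis, 1 point per library, with unlisted values on the dotted line. Fosl1 and Atf3 show the widest gaps, in opposite directions.

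TIA1, an RNA-binding protein of stress granules that binds U-rich sequence, was immunoprecipitated from NT and AS cells, with 2 libraries and 2 inputs each. In the paper the RIP and its input used cytoplasmic lysate, after nuclei were pelleted. The inputs thus gave an AS against NT comparison of cytoplasmic RNA, unlike the total RNA above. Atf3 was at 5.26 and 11.6 scaled RPM in NT input and 125 and 248 in AS input, and Jun at 46.7 and 36.4 in NT and 182 and 314 in AS. Fos was unlisted and at 4.04 in NT, and at 23.1 and 66.6 in AS. Both AS inputs were above both NT inputs for 7 of the 9 listed genes, against 11.8% of 9581 genes. The exceptions were Fosl2, whose groups overlapped (193 and 387 in NT, 220.5 and 353 in AS), and Mafk, which was lower in AS (30.3 and 33.9 in NT, 28.7 and 28.0 in AS). In the test, 1 gene was called higher, 0.0104%, and it was no member, with log2 fold changes of 4.49 ± 0.81 for Atf3 and 2.57 ± 0.47 for Jun (SE, n = 2 and 2, edgeR adjusted p of 0.441 for both). DESeq2 called both (adjusted p = 4.39e-05 and 0.000104).

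In the TIA1 fraction Atf3 stood out. It was unlisted in both NT TIA1 libraries, so its mean in NT input, 8.44 RPM, was at least 6.55-fold above the 5-read level. It was called lower in TIA1 (edgeR adjusted p = 0.0364), as were 1.76% of 9581 genes. Leaving out either NT input (adjusted p = 0.0892 and 0.172) or either NT TIA1 library (0.0674 and 0.0949) ended the call, and counting unlisted PASs as 2 reads did so too (adjusted p = 0.064). The input and TIA1 library of the same number come from 1 lysate. A fit with each lysate as a block was run only with unlisted PASs counted as 0, not as 2 reads. It called 9.88% of genes lower. Atf3 was among them (edgeR adjusted p = 0.000703) and stayed so without any 1 of the 8 libraries (0.00736 to 0.0403). So was Fosl1, which was at 70.7 and 56.6 in input and 33.0 and 21.9 in TIA1 (-1.23 ± 0.36, edgeR adjusted p = 0.0317), but its call was lost without any 1 library (0.0727 to 0.201).

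In AS cells Atf3 was at 36.8 and 134 in TIA1 and 125 and 248 in input. No member passed without the block (1.05% of genes did, 23 higher and 78 lower, or 22 and 43 on library totals and 18 and 38 with TMM factors). With each lysate as a block, 8.98% of genes were called lower, and Atf3 was among them (-1.32 ± 0.38, edgeR adjusted p = 0.0364); the call was lost without any 1 of the 4 AS libraries (0.194 to 0.573). Fosl2 was higher in TIA1 in each of the 4 pairs, at 469.5 and 540.5 in TIA1 against 193 and 387 in input of NT, and at 440.1 and 524 against 220.5 and 353 of AS, but did not pass (edgeR adjusted p = 0.317 and 0.385). Mafk was also higher in each pair, with log2 differences of 0.49 and 0.61 that did not pass. Junb was lower in each pair and did not pass (-1.06 ± 0.82 in NT). How many of all genes moved the same way in all 4 pairs was not counted. For the change of TIA1 over input from NT to AS, no gene passed, 0.0%; 207 genes had an unadjusted p under 0.05, Atf3 among them (edgeR adjusted p = 1), and DESeq2 called 5 genes lower and none higher.

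The 3′UTR isoforms of Fosl2 differed between RNA fractions. Its distal PAS (dPAS) lies 4029 nt after the proximal one, and the distal share is that of reads at both. The PAS at chr5:32460213, further downstream with 16.5% of reads, is left out of this share. In 4sU the share was 86.2% (exact 95% binomial interval 84.3 to 87.9%) and 88.0% in NT, 78.0% in AS and 74.5% in RC4. In Ft it was 54.7% (49.4 to 59.9%) and 58.3% in NT, 45.6% in AS and 41.2% in RC4. The share was thus higher in the 4sU fraction in each condition, and lower in AS and RC4 than in both NT libraries of the fraction. The distal isoform is the longer one, and the share was not adjusted for uridine number, whose part in the difference between fractions was not tested. In TIA1 RNA it was 95.5% and 87.7% in NT and 91.8% and 83.1% in AS, against 71.5%, 55.7%, 56.3% and 50.1% in the matching inputs, so every TIA1 library was above its own input. With 2 libraries against 2, no exact test can pass, and none was run.

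In total RNA the distal share of Fosl2 differed more between replicates than between treatments. It was 72.8%, 57.1% and 20.0% in NT and 72.0%, 48.3% and 11.6% in AS for replicates 1, 2 and 4. The mean was 50.0 ± 27.1% (SD, n = 3) in NT and 44.0 ± 30.4% in AS (exact permutation test, two-sided, p = 0.7, where 0.1 is the smallest p that 3 against 3 libraries allow). The share was lower in AS in each of the 3 pairs, and the paired exact permutation test gave 0.25, the smallest p that 3 pairs allow. It was 18.6%, 23.1%, 29.3% and 30.9% from RC4 to RC24. With the PAS at chr5:32460213 against all upstream, the mean share was 8.35% in NT and 6.05% in AS (exact permutation p = 0.5). Among the other genes with 2 PASs and enough reads, the AS minus NT difference in distal share was -18.2 percentage points for Jund (32.2 ± 5.40% against 50.4 ± 17.9%, exact permutation p = 0.3), 9.08 for Junb, 4.84 for Fosl1, 4.56 for Jun and -0.459 for Mafk. Jund was lower in AS and Jun higher in each of the 3 pairs (paired exact permutation p = 0.25 for both). For Jun these are the PASs 100 nt apart. With its most distal abundant PAS, at chr4:94715732, against all upstream, the Jun difference was -6.48 points (exact permutation p = 0.7). None passed.

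**Figure D5:**
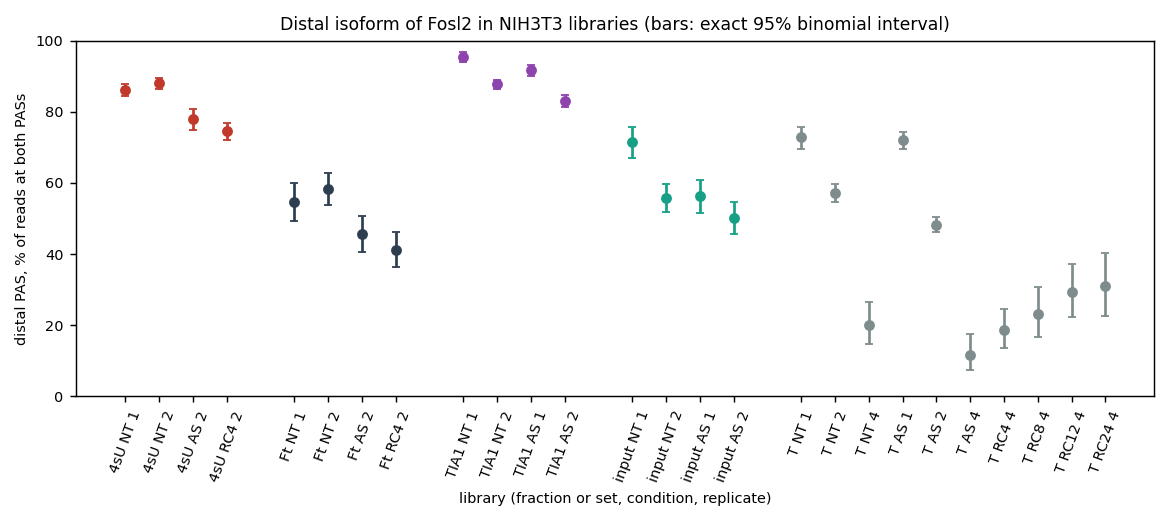
Share of Fosl2 reads at the distal PAS, in percent of reads at both PASs, in each NIH3T3 library, with bars for the exact 95% binomial interval and colours for the 4sU, Ft, TIA1, input and total RNA sets. The TIA1 libraries (83.1 to 95.5%) and 4sU libraries (74.5 to 88.0%) lie above the Ft and input libraries, and total RNA replicate 4 lies lowest.

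Upstream and downstream of AP-1, 3 lists of genes were followed in the total RNA comparison of AS with NT. Their median log2 fold changes without the block were -0.14, 0.09 and 0.07 in the order below, beside 1.37 for the 9 tested members and -0.03 for all genes. Of 23 kinases and SRF or ETS factors, which carry the signal to Fos and Jun, 19 were tested and none passed with or without the block; the smallest adjusted p belonged to Rps6ka5, Map3k7, Elk4 and Rps6ka3, with blocked log2 fold changes of -1.21, -0.40, -0.86 and -0.41. Of 21 other basic leucine zipper genes, 16 were tested, none passed without the block and 1 was higher with it. That gene was Ddit3, the stress factor CHOP, at 191, 278 and 54.4 scaled RPM in NT and 787, 781 and 169 in AS (1.73 ± 0.17, edgeR adjusted p = 0.00294). Without pair 1 or pair 2 Ddit3 did not pass (adjusted p = 0.0834 and 0.0578). Atf4, its upstream activator, had a blocked change of 0.57 ± 0.14 (adjusted p = 0.253), Bach2 one of -0.70 and Atf7 one of -0.37.

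Of 20 genes with known AP-1 sites, 13 were tested, none passed without the block and 2 were higher with it. Hmox1, which degrades heme, was at 205, 52.8 and 208 RPM in NT and 913, 599 and 730.0 in AS (2.48 ± 0.28, edgeR adjusted p = 0.00538). Hbegf, an EGF receptor ligand, was at 26.8, 26.0 and 19.8 in NT and 68.8, 62.2 and 36.3 in AS (1.21 ± 0.20, adjusted p = 0.0468). Hmox1 did not pass without pair 1 (edgeR adjusted p = 0.162), and Hbegf did not without pair 1 or pair 2 (0.638 and 0.871). Vegfa (1.10 ± 0.23, adjusted p = 0.133) and Timp1 (-0.32) did not pass. In RC4, at least 2-fold higher without a test were 9 of 16 of these genes in total RNA, 9 of 16 in Ft, 4 of 15 in 4sU, 7 of 14 in MB, 8 of 13 in MT and 9 of 18 in RNA-seq, beside the shares of all genes given above. At least 2-fold lower were 3 in Ft, 3 in 4sU, 1 in MB, 4 in RNA-seq and none in total RNA or MT. In RC4, the other basic leucine zipper genes at least 2-fold higher were 9 of 17 in RNA-seq and 4 of 14 in total RNA. They were 4 of 16 in 4sU, 5 of 16 in Ft, 5 of 13 in MB and 5 of 15 in MT. In this list 1 was 2-fold lower in 4sU, 1 in MB, 2 in MT and none in the other sets. Of the kinases and SRF or ETS factors, 0 to 4 were 2-fold higher and 0 to 3 lower per set.

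Over the 38 3′READS libraries, on RPM of library totals, Fos ranged up to 2758 RPM with a median of 19.6 and was listed in 32, and Fosb up to 73.4 RPM, listed in 14. Atf3 ranged from unlisted to 2273 RPM and Jun from 27.8 to 2617 RPM. Fosl2 stayed between 33.1 and 1193 RPM and Mafk between 19.9 and 347 RPM, both listed in all 38. Of 9322 genes outside the list, Ier2, an immediate-early gene, had the pattern most like Fos (Pearson r of log2(RPM + 1) 0.834), followed by Dnajb4 (0.807) and Ccrn4l (0.797). For Jun, Btg2 (0.772) and Nr4a1 (0.75) were among the most alike, and for Atf3 these were Ppp1r15a (0.886), Hspa1b (0.839), whose reads may be shared with its near-identical neighbour Hspa1a, and Ddit3 (0.82). Within the list, Fos was most like Atf3 (0.758), and Fosl2 was least like Atf3 (-0.076). These are descriptions over libraries that share sets, treatments and depth, with no test.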

How the data were processed

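The authors trimmed reads with cutadapt, mapped 3′READS reads to mm9 with Bowtie2 and RNA-seq reads with STAR (versions are not given in the sources used here), and deposited raw read counts per PAS, and for RNA-seq raw counts per gene on coding sequence. Both kinds of file list only entries of at least 5 reads; unlisted entries were counted as 0. PAS positions within 24 nt were joined over libraries and assigned with GENCODE vM1 on NCBIM37, up to 4000 nt past a gene's end; 84.11 to 94.03% of reads were assigned.

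Gene counts were tested with edgeR 4.0.16 in R 4.3.3 (quasi-likelihood, median-ratio factors, filterByExpr, Benjamini-Hochberg threshold 0.05), with DESeq2 1.42.0 as an alternative, after a test on simulated counts. 7 comparisons had replicates. The other 14 are untested folds on scaled RPM with a pseudocount of 0.5, called at 2-fold for genes with at least 20 reads in a compared library; RNA-seq, 4sU, Ft and C2C12 cytoplasm use the NT libraries labelled 0 h and 4 h as 2 controls, and the time course uses NT replicate 4. Other steps used Python 3.11.15, numpy 2.4.6, pandas 2.3.3 and scipy 1.17.1. The members and lists were chosen with earlier results of these data known. Named genes were all members, the 4 genes per list with the smallest adjusted p in AS against NT total RNA, and the 3 genes most like Fos, Jun and Atf3, of which 1 is not reported here.

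Deviations from group means of same-numbered NT and AS total RNA libraries correlated (r 0.895 to 0.924 in 3 pairs), so the numbers were taken to pair them. All other pairs were negative, which follows in part from taking deviations from group means. With 2 libraries per group, the swapped pairing has the same r with the opposite sign. Same-numbered input and TIA1 libraries come from the same lysate (0.482 in NT, 0.535 in AS) and 4sU and Ft from the same RNA (0.344). The input numbers of NT and AS share only a number (2 pairs, 0.652), so that block is given only in the closing section, which also gives what changed with the replicate block, scaling, filters and left-out libraries. Library totals in the tests, the gene span plus 24 nt, the lysate block, the paired isoform test and the blocked fits without a library or pair were chosen after seeing the data.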

Additional observations from a re-analysis of the deposited data

Results flagged for a closer look

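In newly made and flow-through RNA, the scaled levels of 2 genes lay on opposite sides of NT, each treated library outside both NT libraries of its fraction. The differences between fractions were not tested, since each treated condition is 1 library per fraction. Fosl2 in AS was at 0.720 times NT in 4sU and 1.05 times in Ft, where its counting interval of 227 to 268 RPM covers both NT libraries at 232 and 238. In RC4, Fosl2 was at 0.682 times NT in 4sU and 1.18 times in Ft; on library totals the Ft value of Fosl2 turned to below NT (log2 fold -0.20). Junb in RC4 was at 0.657 times NT in 4sU and 1.54 times in Ft, or log2 folds of -0.88 and 0.18 on library totals.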

How the results depend on the processing

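The replicate block changed calls of members in the total RNA and TIA1 sets: it called 3 members higher in AS than NT total RNA, and 2 lower in TIA1 than input of NT and 1 of AS, with each lysate or only the number as the block. In the input, where NT and AS share only a number, it called 2 members higher, Atf3 (4.50, edgeR adjusted p = 0.00291) and Jun (2.59, adjusted p = 0.0344). It changed no other call of a member, in 4sU against Ft, where both fractions come from the same RNA, or in MT against MB, where the libraries share only a number (r 0.091). Fits that left out 1 library, or with the block 1 library or pair, called 0 to 5 members in total RNA, 0 to 3 in the input, 0 to 2 lower in TIA1 of NT and 0 to 1 of AS. In the input, DESeq2 called 2 members and no low-count filter 3. In TIA1 of NT, counting unlisted PASs as 2 reads left 0 lower members, and without the filter 1 member passed for the AS minus NT change. The annotated gene span alone drops the main PAS of Fos, Fosb, Fosl1, Junb and Maff: 1 member was then lower in MT, and 1 was 2-fold higher after 8 h of recovery.

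Over all genes, the replicate block by number, by lysate, DESeq2 and no filter called 861, 834, 630 and 535 genes higher and 931, 947, 652 and 555 lower in TIA1 of NT (176 and 169 without them), and 735, 733, 494 and 331 higher and 812, 860, 592 and 510 lower of AS (23 and 78). Without the block, leaving out 1 library gave 0 to 129 higher and 0 to 120 lower of NT, with 0 and 0 without either NT input, and 0 to 96 higher and 0 to 241 lower of AS, with at most 1 on leaving out an AS library. In the input the block by number, DESeq2 and no filter called 14, 17 and 16 higher and 1, 1 and 3 lower, and in total RNA the block called 25 higher and 1 lower. Of the untested 2-fold counts, 4sU RC4 ran from 4 to 6 members over the alternatives, Ft RC4 from 7 to 8, MB AS from 4 to 6, MB RC4 from 4 to 7, MT AS from 6 to 8 and MT RC4 from 4 to 6.

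In the tests, members that did not pass were the ones that changed direction. On library totals the log2 differences became 0.07 for Fosl2 in the input, 0.03 for Jun in TIA1 of NT, 0.10 for Jund and 0.12 for Maff in 4sU against Ft. With the replicate block Fosl2 in the input was 0.01. The AS minus NT change of Fosl2 was 0.05 with TMM and 0.04 on the annotated span. The distal share of Jun fell by 6.48 points with its most distal PAS. Without 1 library or pair, Fosl2 ran from -0.08 to 0.50 and Junb from -2.01 to 4.15 in total RNA, and Fosl2 from -0.44 to 0.56 in the input. In TIA1 of NT, Fos ran from -6.80 to 6.22, Jun from -0.60 to 0.32, Jund from -6.59 to 7.83 and Maff from -0.07 to 0.34. In TIA1 of AS, Fos ran from -0.52 to 1.24, Jun from -0.97 to 0.22 and Jund from -1.51 to 2.86. For the AS minus NT change, Fos ran from -5.91 to 7.13, Fosl2 from -0.63 to 0.37, Jun from -0.83 to 0.37, Junb from -0.65 to 1.42, Jund from -7.29 to 7.14, Maff from -0.17 to 0.23 and Mafk from -0.02 to 0.25. In 4sU against Ft, Jund ran from -0.25 to 0.06 and Maff from -0.21 to 0.06. The cause was not tested.

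In the shallow libraries a member under 5 reads cannot be told from one at 0, which limits Fosb and Fos in NT most. The 14 comparisons with 1 treated library have no replicate check, and their intervals cover counting error only.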
